A study of Chlamydomonas reinhardtii with 9 samples.

Results

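The suppressor mcd2-1 of the green alga Chlamydomonas reinhardtii was set against the mutant mcd1-2 on 3 of the 9 arrays in the series, chosen by their titles. Channel 1 held total RNA of the suppressor, which the labels call photosynthetic, and channel 2 held total RNA of mcd1-2, which they call nonphotosynthetic. Of the other arrays, 3 set mcd1-2 and 3 set the mutant mcd1-1 against the wild-type strain P17. The labels give all 9 arrays the keyword petD mutant, and they say neither whether the suppressor still carries the mcd1-2 allele nor whether replicates 1 to 3 were grown as separate cultures. The p-values therefore cover only array-to-array spread, and that spread could be technical.

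As background, petD is a chloroplast gene for subunit IV of the cytochrome b6f complex, which carries electrons between the photosystems. Many chloroplast mRNAs of this alga are kept from degradation by proteins made from nuclear genes, each acting on the 5′ end of its own target, and MCD1 is such a factor for petD mRNA. A nuclear suppressor is a second mutation that lets a nonphotosynthetic strain grow photosynthetically again. The annotation used here ties no probe to petD, MCD1 or any chloroplast gene. It gives locus tags to 11 of 71 probes, all nuclear, and the other 60 probes are given by spot number.

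Values are log ratios taken as log2, averaged over the 3 spots of a probe and centred on each array's median, and read as channel 1 over channel 2, the order of the labels. That direction is not settled for the suppressor arrays, since replicates 1 and 2 correlated at -0.31 over 71 probes. Each mean is therefore also given with replicate 1 reversed in sign, called the turned mean. That reversal was prompted by the same values, and reversing replicate 1 or 2 makes these arrays agree better by construction. Turned p-values, sign counts and spreads are therefore given as alternatives only. A probe counted as changed when its adjusted p from limma, over all 71 probes, was under 0.05.

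With the signs as labelled, one unnamed probe, spots 97 to 99, was called higher in the suppressor than in mcd1-2. Its log2 ratios were 1.13, 1.78 and 2.83 on replicates 1, 2 and 3, so it lay above 0 on 3 of 3 arrays. The mean was 1.92 ± 0.86 (SD, n = 3), which is 3.77-fold higher (limma adjusted p = 0.0282). The 95% interval of the fold ran between 1.96 and 7.26. It was the only one of 71 probes past the threshold, or 1.41% of those tested, and 6 had an unadjusted p under 0.05. The p-value and interval take in the spread of the mutant arrays, which was smaller in most probes. In the fit to the suppressor arrays alone the limma adjusted p of spots 97 to 99 was 0.116.

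The 9 deposited spot values behind this mean were all positive. They were 1.38, 1.05 and 1.24 on replicate 1, then 2.86, 2.19 and 1.79 on replicate 2, and 2.86, 2.63 and 2.80 on replicate 3. Spots within an array thus lay closer together than the arrays did, most of all on replicates 1 and 3. Within each array the probe ranked 9 of 71 from the top on replicate 1, 2 of 71 on replicate 2 and 1 of 66 on replicate 3.

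The call of spots 97 to 99 held under some settings but did not hold under several others. It held without centring (2.09, limma adjusted p = 0.027), with spot medians (1.89, 0.0342) and with robust moderation (1.92, 0.0131). It also held without suppressor replicate 1 (2.31, 0.0252) and without the spots below -10, which belong to other probes (1.91, 0.00291). The settings that follow lost it. The turned mean was 1.16 (limma adjusted p = 0.267), and reversing replicate 2 instead gave 0.73 (0.623). Reversing replicate 1 left 3 of 71 probes past the threshold (4.23%), 2 higher and 1 lower, which are described further on. Reversing replicate 2 left 0 (12 had an unadjusted limma p under 0.05). Without suppressor replicate 3 it was 1.46 (0.364), without suppressor replicate 2 it was 1.98 (0.0605), and without mcd1-2 replicate 3, which enters through the shared spread, it was 1.92 (0.0728). Replicate 3 has no value for 5 probes, of which 4 are also missing on mcd1-2 replicate 3 and mcd1-1 replicate 2, and a term for these arrays in the fit gave 1.95 (0.0869). An exact two-sided sign-flip test of 3 arrays cannot go below 0.25.

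**Figure D1:**
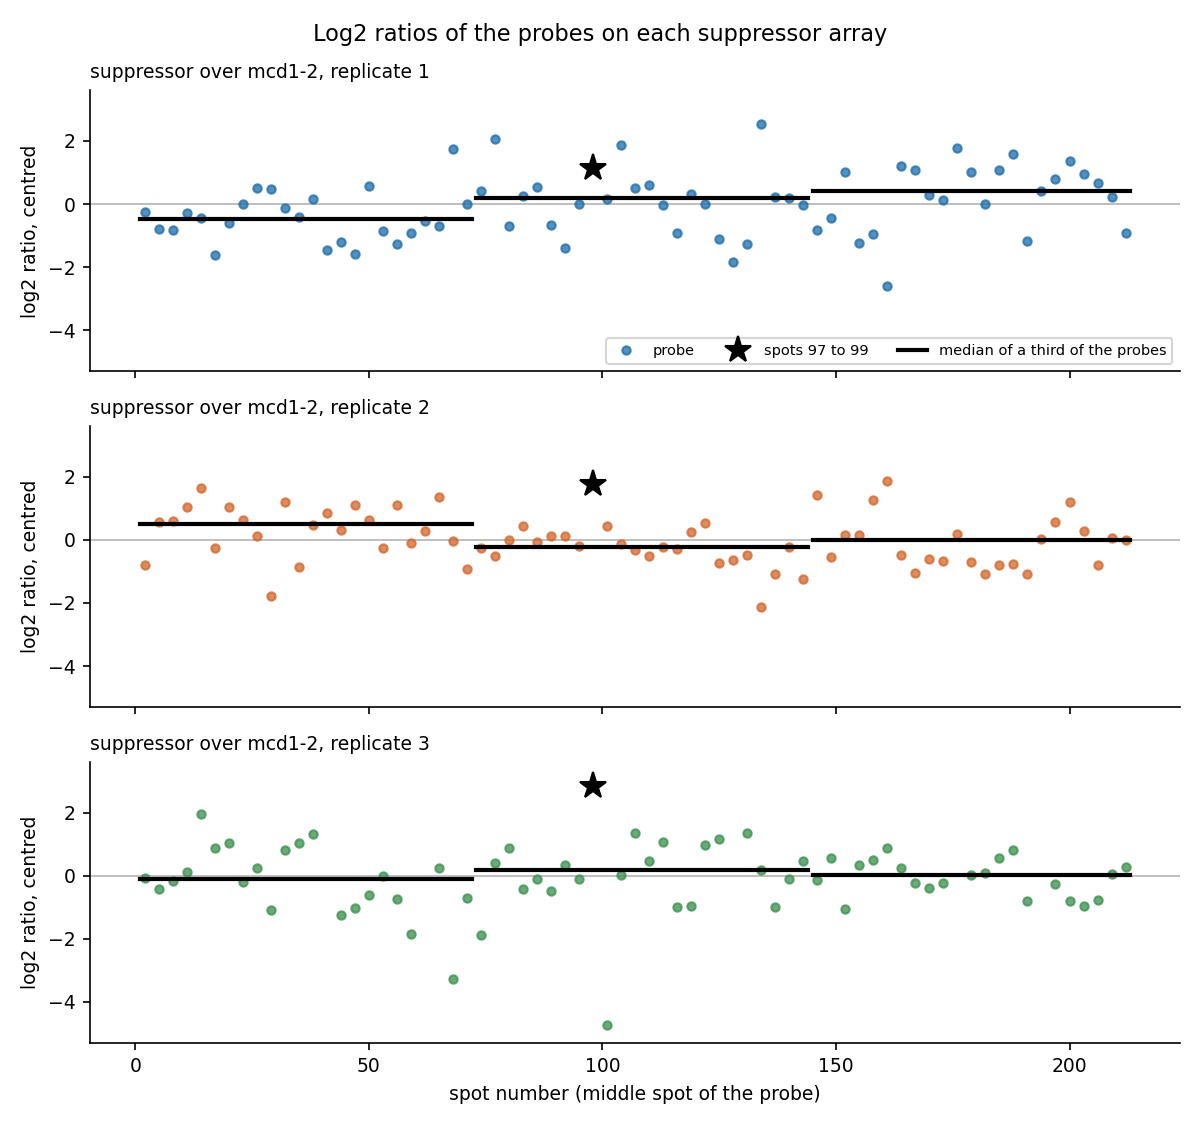
Centred log2 ratio of suppressor over mcd1-2 (vertical axis) against spot number (horizontal axis), 1 panel for each replicate. Dots are probes, the star is spots 97 to 99 at 1.13, 1.78 and 2.83, and black bars are medians over spots 1 to 72, 73 to 144 and 145 to 213.

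The 3 arrays agreed poorly with each other. Pearson's r across probes was -0.31 between replicates 1 and 2 (71 probes), -0.11 between replicates 1 and 3, and 0.12 between replicates 2 and 3 (66 probes each). For comparison, r lay between 0.55 and 0.72 for mcd1-2 over wild type and between 0.54 and 0.90 for mcd1-1 over wild type. Those of the mutants lean on spots 97 to 99, without which r lay between -0.36 and 0.04 for the suppressor, 0.35 and 0.60 for mcd1-2, and 0.18 and 0.75 for mcd1-1. These are descriptions across probes, which are not independent replicates, and probes on an array share its hybridisation and centring.

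The same was seen in the signs. Replicates 1 and 2 put 30 of 71 probes on the same side of 0, replicates 1 and 3 put 28 of 66, and replicates 2 and 3 put 32 of 66. A single sign over all its arrays was found for 14 of 71 probes (19.7%), 6 above and 8 below 0. The count was 22 of 71 (31.0%) when replicate 1 was reversed, a reversal prompted by these same values. It was 28 of 71 (39.4%) for mcd1-2 over wild type.

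A pair of probes lay at opposite extremes of replicates 1 and 2. Spots 133 to 135 held the highest value of replicate 1, at 2.53, and the lowest of replicate 2, at -2.11, with 0.17 on replicate 3. The replicate 2 value averages deposited spots of -4.39, -0.94 and 0.47. Spots 160 to 162 ran the other way, with the lowest value of replicate 1, at -2.59, the highest of replicate 2, at 1.86, and 0.87 on replicate 3. Its spots agreed within each array, with a spot SD of at most 0.17. Its mean was 0.05, and its turned mean of 1.77 passed the threshold (limma adjusted p = 0.0387). The mean of spots 133 to 135 was 0.20 and the turned mean -1.49 (limma adjusted p = 0.0595). Without both probes, a setting chosen after seeing the data, r between replicates 1 and 2 was -0.17, so its passing of -0.3 rests on these 2 probes. The reversal of replicate 1 was prompted by that correlation, so the turned means and p-values of these 2 probes largely follow from the choice.

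**Figure D2:**
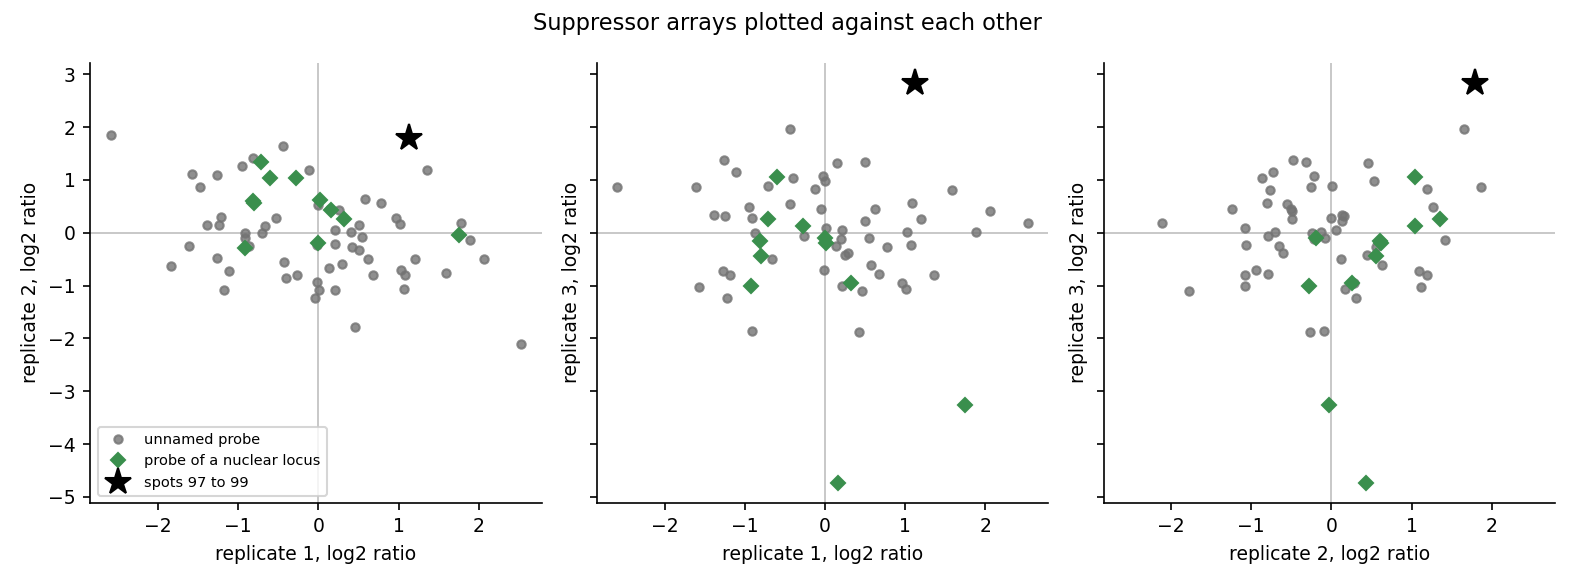
Centred log2 ratios of suppressor over mcd1-2 on 1 replicate against another, for replicates 1 and 2, 1 and 3, and 2 and 3. Dots are unnamed probes, diamonds the 11 nuclear loci and the star spots 97 to 99; the cloud slopes down in the first panel, where r was -0.31.

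Replicates 1 and 2 also differed along the spot numbers. On replicate 1 the median was -0.48 over the 24 probes of spots 1 to 72, 0.18 over spots 73 to 144 and 0.41 over the 23 probes of spots 145 to 213. On replicate 2 these medians were 0.51, -0.22 and 0.00, and on replicate 3 they were -0.11, 0.17 and 0.02. The correlation of the log ratio with spot number was 0.28 on replicate 1, -0.26 on replicate 2 and -0.02 on replicate 3, against -0.07 to 0.17 on the 6 mutant arrays.

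With the median of 11 neighbouring probes subtracted, a setting added after seeing the data, r between replicates 1 and 2 was -0.21. There spots 97 to 99 stood at 1.85 with a limma adjusted p of 0.344. No probe passed the threshold under that setting (7 had an unadjusted limma p under 0.05).

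The spread between arrays was larger for the suppressor than for the mutants in most probes. The median SD between arrays was 0.85 for the suppressor, 0.44 for mcd1-2 and 0.35 for mcd1-1. For the suppressor it was 0.66 with replicate 1 reversed and 0.70 with replicate 2 reversed. With the signs as labelled, the suppressor SD exceeded that of mcd1-2 in 51 of 71 probes, that of mcd1-1 in 58 and both in 45. These counts were 48, 55 and 41 with replicate 1 reversed and 46, 55 and 44 with replicate 2 reversed. The suppressor SD also exceeded the largest spot SD of the probe in 64 of 71 probes, or in 56 and 55 under these reversals, so in most probes the arrays differed by more than the spots did. The median spot SD was 0.205 on replicate 1, 0.113 on replicate 2 and 0.139 on replicate 3.

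**Figure D3:**
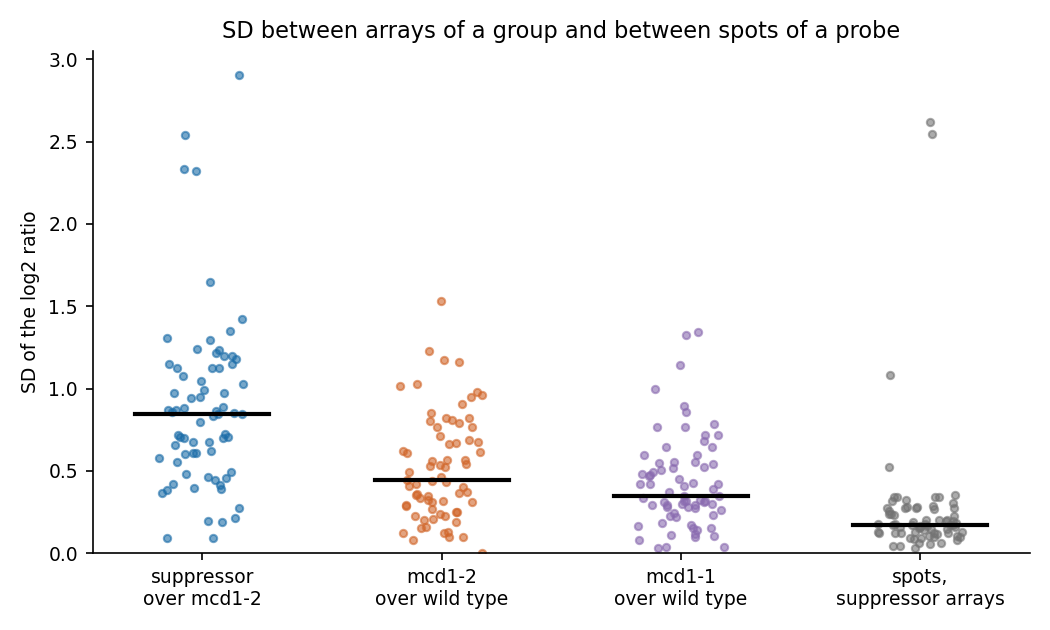
SD of the log2 ratio (vertical axis) for each probe, between the 3 arrays of each comparison and, at the right, between the 3 spots of a probe averaged over the suppressor arrays. Dots are probes and bars are medians, at 0.85, 0.44, 0.35 and 0.171.

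Spread of this size limited what could be detected. The fit pools the spread of all 9 arrays, so its suppressor p-values and intervals take in the smaller spread of the mutant arrays. Its 95% interval had a median half-width of 0.82 on the log2 scale. The interval lay within 1 of 0 for 18 of 71 probes and within 2 of 0 for 67. The counts were 16 and 64 with replicate 1 reversed, and 22 and 66 with replicate 2 reversed. With weighted arrays they were 9 and 64. In the fit to the suppressor arrays alone they were 0 and 64, so the bound within 1 rests on the pooled spread. There the half-width was 1.18, no probe passed and 2 had an unadjusted limma p under 0.05, with spots 97 to 99 at an adjusted p of 0.116.

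Among the other high means, none passed the threshold. Spots 13 to 15 read -0.44, 1.65 and 1.97 on replicates 1 to 3, a mean of 1.06 ± 1.31 (SD, n = 3, limma adjusted p = 0.389). Replicates 2 and 3 were high and replicate 1 was below 0. The turned mean was 1.35 (limma adjusted p = 0.0461), and leaving replicate 1 out gave 1.81 (0.0194). Over all alternatives the adjusted p ran between 0.0194 and 0.952.

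Spots 175 to 177 read 1.78 and 0.19 on replicates 1 and 2 and had no value on replicate 3, so the mean of 0.98 rests mostly on replicate 1. Spots 76 to 78 read 2.06, -0.50 and 0.41, a mean of 0.66 ± 1.30 (SD, n = 3). The turned means of these 2 probes were -0.80 and -0.71. By contrast spots 37 to 39 lay above 0 on all 3 arrays, at 0.15, 0.46 and 1.32, with a mean of 0.64 ± 0.61 (SD, n = 3) and a turned mean of 0.54.

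The most even of the low means was that of spots 190 to 192. It read -1.18, -1.08 and -0.80, a mean of -1.02 ± 0.20 (SD, n = 3), and all 9 of its deposited spots were negative. The 95% interval ran from -1.80 to -0.24, and the limma adjusted p was 0.389. Among the 66 probes with 3 values it was the only one of the 5 narrowest ranges whose mean lay beyond 0.5 of 0. Its turned mean was -0.23, below 0 on 2 of 3 arrays.

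Spots 127 to 129 read -1.83 and -0.63 on replicates 1 and 2 and had no value on replicate 3. The mean was -1.23 and the turned mean 0.60. Spots 28 to 30 read 0.46, -1.78 and -1.10, a mean of -0.81 ± 1.15 (SD, n = 3). Replicates 2 and 3 were low there, and without replicate 1 the mean was -1.44 (limma adjusted p = 0.0392, up to 0.95 over the alternatives). The turned mean was -1.11 (0.0595).

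The remaining 4 probes with the narrowest ranges lay near 0. Spots 208 to 210 read 0.21, 0.06 and 0.05, and spots 139 to 141 read 0.20, -0.21 and -0.11. Spots 25 to 27 read 0.50, 0.14 and 0.23. The fourth is the nuclear locus CHLRE_07g326150v5, at -0.003, -0.19 and -0.10. Their turned means lay between -0.18 and -0.03. In all, 49 of 71 means and 35 of 71 turned means lay within 0.5 of 0.

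The probes that changed in mcd1-2 relative to the wild type were then read in the suppressor. There were 4 such probes (5.63% of 71), and mcd1-2 RNA is the denominator of the suppressor ratio and the numerator of the other, so the values are given side by side and no correlation is drawn. Over 20 alternatives the count ran between 2, without mcd1-2 replicate 1 or 2, and 8 with weighted arrays; spots 97 to 99 and 13 to 15 passed in all 20. Spots 97 to 99 stood at 1.92 in suppressor over mcd1-2 and at -4.79 ± 0.56 (SD, n = 3) in mcd1-2 over wild type. Spots 13 to 15 stood at 1.06 in suppressor over mcd1-2 and at -3.16 ± 0.53 (SD, n = 3) in mcd1-2 over wild type.

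The other 2 had risen in mcd1-2, but neither passed without mcd1-2 replicate 1 (limma adjusted p = 0.0519 for spots 58 to 60 and 0.124 for spots 55 to 57) or replicate 2 (0.116 and 0.227). With neighbouring probes subtracted, spots 55 to 57 did not pass (0.109). Spots 58 to 60 read -0.91, -0.09 and -1.85 in suppressor over mcd1-2, a mean of -0.95 ± 0.88, against 1.68 ± 0.25 in mcd1-2 over wild type (SD, n = 3 each). All 3 suppressor arrays lay below 0 and all 3 mcd1-2 arrays above it, but the suppressor mean had a limma adjusted p of 0.389, and the turned mean was -0.35. Spots 55 to 57 read -1.27, 1.09 and -0.73 in suppressor over mcd1-2, a mean of -0.30 ± 1.24, against 1.69 ± 0.62 in mcd1-2 over wild type (SD, n = 3 each). The turned suppressor mean was 0.54.

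Spots 46 to 48 had one of the 5 widest ranges, at -1.57, 1.12 and -1.03 in suppressor over mcd1-2. Their mcd1-2 over wild type values were 0.62, 2.43 and 0.69. The suppressor mean was -0.50 and the turned mean 0.55.

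**Figure D4:**
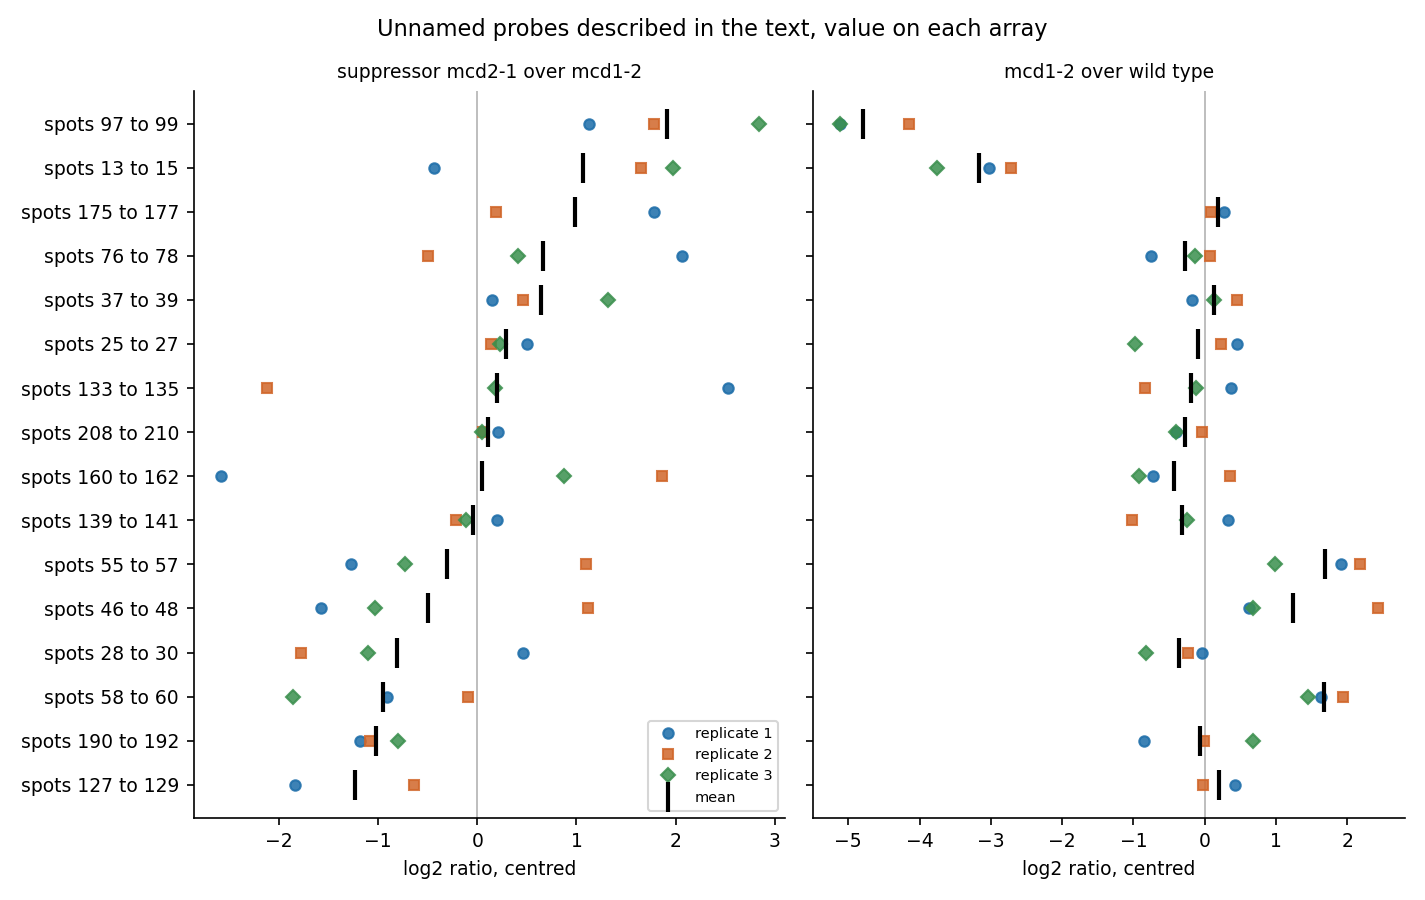
Centred log2 ratio (horizontal axis) of the 16 unnamed probes described in the text, for suppressor over mcd1-2 at the left and mcd1-2 over wild type at the right. Symbols are replicates and vertical ticks are means; spots 97 to 99 and 13 to 15 have the highest means at the left, 1.92 and 1.06, and the lowest at the right, -4.79 and -3.16.

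Suppressor and wild type were not hybridised together, so their ratio was estimated by adding the mean of suppressor over mcd1-2 to that of mcd1-2 over wild type. In this indirect ratio the RNA of spots 97 to 99 was lower in the suppressor than in the wild type, at -2.87 (95% interval from -4.21 to -1.54, limma adjusted p = 0.0153). This is 7.33-fold, and the interval of the fold ran between 2.90 and 18.5. It was the only probe of 71 past the threshold (1.41%), while 5 passed an unadjusted p of 0.05. The turned value was -3.63 (limma adjusted p = 0.0441), and reversing replicate 2 instead gave -4.06 (0.00614). Either reversal left 2 of 71 probes past the threshold (2.82%).

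The call was lost without centring (-2.58, limma adjusted p = 0.0916), without suppressor replicate 1 (-2.48, 0.103), and without mcd1-2 replicate 1 (-2.71, 0.103) or 3 (-2.71, 0.135). For spots 13 to 15 the indirect ratio was -2.10 (interval -3.36 to -0.84, limma adjusted p = 0.083) and its turned value -1.81. Reversing replicate 2 took it to -3.20 (limma adjusted p = 0.00614). With the signs as labelled it passed without the spots below -10 (-2.105, limma adjusted p = 0.025), with arrays scaled to equal spread (-2.39, 0.00742), and without suppressor replicate 2 (-2.39, 0.0297) or 3 (-2.55, 0.0185). The highest indirect ratio was 1.39 for spots 55 to 57 (limma adjusted p = 0.48), whose turned value passed at 2.24 (0.0441).

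The named probes are 11 nuclear loci. The annotation and the RefSeq table give them no product names, so no role is stated. None passed the threshold in suppressor over mcd1-2 or in the indirect ratio, against 1 of 71 probes (1.41%) in each. In the suppressor 7 of 11 means lay below 0 with a median of -0.12, beside 37 of 71 with a median of -0.08 over all probes. Replicates 1, 2 and 3 taken singly put 7, 3 and 8 of the 11 below 0, so the majority sign differed between arrays. The count was 5 of 11 for turned means and 10 of 11 with replicate 2 reversed. It was 4 of 11 without centring or without replicate 3, and 10 of 11 without replicate 2.

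The widest ranges among the loci come from 2 single spots of replicate 3. CHLRE_03g182551v5 read 0.16, 0.43 and -4.74 on replicates 1 to 3, a mean of -1.38 ± 2.91 (SD, n = 3), the lowest of all probes. Its deposited spots on replicate 3 were -0.53, -13.4 and -0.49. Without the spot at -13.4 the replicate 3 value was -0.45 and the mean 0.05 ± 0.45 (SD, n = 3). The turned mean was -1.49 with that spot and -0.06 without it. In the indirect ratio this locus stood at -2.09 (limma adjusted p = 0.48), the third lowest of 71 probes, and at -0.66 (0.754) without spots below -10. With that spot kept it passed without suppressor replicate 2 (-2.998, limma adjusted p = 0.0381).

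CHLRE_12g550850v5 read 1.75, -0.04 and -3.26, a mean of -0.52 ± 2.54 (SD, n = 3). Replicate 3 holds 1 spot at -11.6 beside spots of 0.74 and 0.88. Without it the replicate 3 value was 0.87 and the mean 0.86 ± 0.89 (SD, n = 3), so the sign of this mean rests on 1 spot. The turned mean was -1.68 (limma adjusted p = 0.0461), and -0.31 when that spot was also left out.

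CHLRE_05g238332v5 was below 0 on all 3 arrays, at -0.918, -0.286 and -1.002. Its mean was -0.74 ± 0.39 (SD, n = 3, 95% interval from -1.53 to 0.06), and the turned mean -0.12. CHLRE_06g259900v5 had the highest mean of the loci, at 0.50 ± 0.95 (SD, n = 3), from -0.60, 1.04 and 1.05. Replicates 2 and 3 were close there and replicate 1 lay below 0, so that the turned mean was 0.90 (limma adjusted p = 0.0835). This locus lies among spots 1 to 72, where the medians over all probes were -0.48 on replicate 1 and 0.51 on replicate 2. With neighbouring probes subtracted its mean, with the signs as labelled, was 0.35 (limma adjusted p = 0.617).

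CHLRE_09g396213v5 read -0.71, 1.35 and 0.25, and CHLRE_16g671400v5 read -0.28, 1.04 and 0.12. CHLRE_09g395950v5 read -0.80, 0.56 and -0.44, and CHLRE_03g169550v5 read -0.82, 0.60 and -0.16. In all 4 replicate 2 was the highest and replicate 1 the lowest. Their means lay between -0.23 and 0.30, and the turned means between 0.31 and 0.77. All 4 lie among spots 1 to 72, where the medians over all probes were -0.48 on replicate 1 and 0.51 on replicate 2. With neighbouring probes subtracted the 4 means were 0.70, 0.20, -0.27 and -0.17 in the order above, and none passed the threshold.

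CHLRE_11g467569v5 read 0.02, 0.62 and -0.19, with a mean of 0.15. CHLRE_09g412100v5 read 0.33, 0.26 and -0.95, with a mean of -0.12, and its replicate 3 value rests on 2 spots. Their turned means were 0.14 and -0.34. The 95% intervals of these 2 loci, of CHLRE_07g326150v5 and of CHLRE_03g169550v5 lay within 1 of 0 in the pooled fit. In the fit to the suppressor arrays alone no probe had such an interval.

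**Figure D5:**
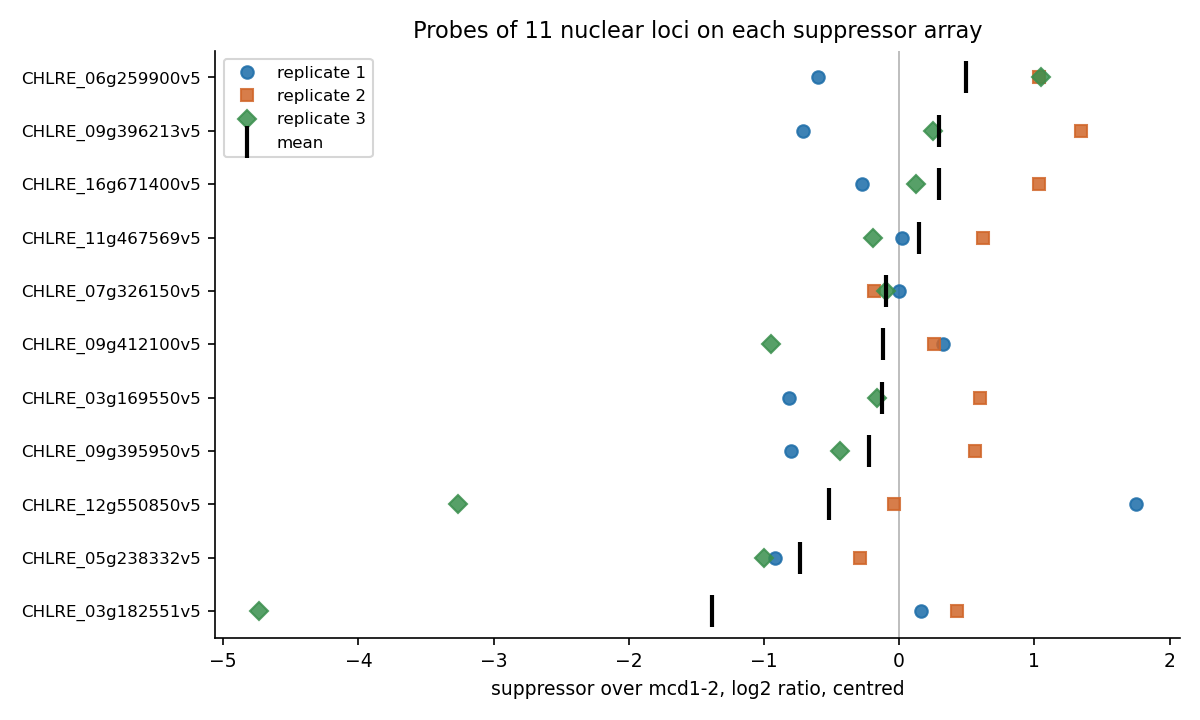
Centred log2 ratio of suppressor over mcd1-2 (horizontal axis) for the probes of 11 nuclear loci, ordered by mean. Symbols are replicates and vertical ticks are means; the values at -4.74 and -3.26 on replicate 3 each include 1 spot below -10.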

How the data were processed

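The deposited table holds log2 ratios, by the reading given here, of the 2 channels for 213 spots on 9 arrays. How the authors made them (scanner, background correction, normalization, dyes, direction, log base, centring) is not given in the sources used here, and neither are spot intensities. The base was taken as 2 because a natural log ratio of unaltered 16-bit intensities cannot exceed 11.1 in size, which rests on the single spots at -13.4 and -11.6. Background correction or normalization could carry a value past that limit. The base is therefore an assumption, and every fold given rests on it. Suppressor replicates 1, 2 and 3 had 212, 212 and 197 spots with a value and deposited medians of 0.07, 0.46 and -0.06. The number of arrays limits the precision.

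Each set of 3 consecutive spots was averaged to a probe and each array's median over probes subtracted. A linear model with one mean per comparison used the 9 arrays together (limma 3.58.1, R 4.3.3, functions lmFit and eBayes, two-sided, Benjamini-Hochberg adjustment over 71 probes, threshold 0.05), after a test on simulated data. The simulated arrays were independent and shared a single spread per probe. They did not cover the larger spread of the suppressor arrays or their trends along spot number. The 11 locus tags all matched the RefSeq table of Chlamydomonas reinhardtii, which was used for names only. Lists of genes by role could not be applied, because the loci carry no product names. Probes named were those past the threshold (also with a sign turned, or in mcd1-2 over wild type), the 5 highest and 5 lowest means, the 5 widest and 5 narrowest ranges, and all loci. Members, lists and tests were chosen with earlier results of these data known.

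The correlation of deviations between same-numbered arrays of different comparisons ran from -0.38 to 0.38 over 9 pairs. For other pairs it ran from -0.46 to 0.37. Deviations cancel out within a comparison, and mcd1-2 RNA is the denominator of the suppressor ratio and the numerator of the mcd1-2 ratio. These values therefore cannot tell whether the numbers pair samples.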

Additional observations from a re-analysis of the deposited data

How the results depend on the processing

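The count of 1 probe in suppressor over mcd1-2 became 0 with arrays brought to equal spread, weighted arrays, a term for arrays that share missing probes, replicate 2 reversed in sign, a fit to the suppressor arrays alone, and local medians of neighbouring probes taken off (limma, with 4, 6, 7, 12, 2 and 7 probes at an unadjusted p under 0.05). It became 3 with replicate 1 reversed, and 0 to 3 over the 9 fits that leave out 1 array (5 to 16 at an unadjusted limma p under 0.05). In those settings the mean of spots 97 to 99 was 1.57 (limma adjusted p = 0.187), 2.13 (0.11), 1.95 (0.0869), 0.73 (0.623), 1.92 (0.116), 1.85 (0.344) and 1.16 (0.267), and from 1.46 to 2.31 without single arrays. That mean was above 0 under every setting run. All 3 suppressor arrays lay above 0 there, so leaving out, weighting or scaling arrays could not have put it below 0. In the indirect ratio the count of 1 became 0 without centring, with array weights, with the term for shared missing probes and with neighbouring probes subtracted (limma, 6, 7, 5 and 7 probes at an unadjusted p under 0.05), where that probe had values of -2.58, -2.64, -2.80 and -2.70 (limma adjusted p = 0.0916, 0.0946, 0.0906 and 0.142). It became 2 without the spots below -10, with scaled arrays and with replicate 1 or 2 reversed, and 0 to 3 without single arrays (2 to 9 unadjusted), with spots 97 to 99 from -3.33 to -2.48. The replicate block gave 1 probe in suppressor over mcd1-2 (spots 97 to 99 at 1.92, limma adjusted p = 0.00312) and 3 in the indirect ratio, adding spots 13 to 15 at -2.10 and CHLRE_03g182551v5 at -2.09 (limma adjusted p = 0.0355 for both). The value of that locus includes the single spot at -13.4. Without the spots below -10, in the fit without the block, its indirect ratio was -0.66 (limma adjusted p = 0.754). Whether the numbers pair samples could not be told: 1 of 9 same-numbered pairs correlated above 0.1, and 2 of 9 arrays correlated best with their own number. Of the 11 loci, 4 lay below 0 without centring, and 4 to 10 without single suppressor arrays. The lowest correlation between suppressor arrays ran from -0.36 to -0.17 over its alternatives. Of 1066 values of the other named probes under alternatives, 1002 stayed on their side of the threshold within 1 SD, 50 moved further and 14 passed the threshold. The causes were not tested. The SD was that of the probe between suppressor arrays, and several settings leave the mean as it was. Staying within it was therefore largely fixed in advance. It includes changes of sign, as for spots 13 to 15, at 1.06 as labelled and -0.04 with replicate 2 reversed. The neighbour subtraction, the fits without mcd1-1 arrays, those without mcd1-2 arrays in suppressor over mcd1-2 and the omission of the probes at opposite extremes were added after seeing the data.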
